A study of Mus musculus with 12 samples.

Results

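Replication-dependent histone genes were followed from mouse embryonic stem cells (ESCs) into epiblast-like cells (EpiLCs). Members were the protein-coding genes whose GENCODE symbol starts with Hist1h, Hist2h, Hist3h or Hist4h, which gave 65 of the 51467 genes in the count table: 6 linker histone H1 genes, 18 H2A, 16 H2B, 12 H3 and 13 H4 genes. Of these, 59 had a read and 57 passed the expression filter, which asked for 3 CPM (reads scaled to the library's total) or more in 3 or more libraries. The other 8 (Hist1h2ao, Hist1h2ap, Hist2h2aa1, Hist2h2aa2, Hist1h2bq, Hist1h2br, Hist2h3c1 and Hist1h4m) were at or near 0 reads and were not tested. The ESCs were grown in Knockout DMEM with 15% serum, LIF and the 2i inhibitors PD0325901 and CHIR99021, and EpiLCs were plated from them and collected 56 h after LIF and 2i were withdrawn. The line carried fluorescent reporters of the miR-290 and miR-302 microRNAs. All cells received 500 µM 4-thiouridine (4sU), a uridine analogue, for 30 min before lysis, so every group shares this treatment. RNA with incorporated 4sU was biotinylated and captured (4sU libraries, nascent RNA), or unselected RNA was depleted of ribosomal RNA (total libraries, mRNA level), with 3 libraries for each cell type and assay. The study calls its replicates biological, while the labels do not say whether the libraries came from separate cultures, so the p-values measure the spread between these libraries, whatever its source.

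Replication-dependent histone genes supply the histones that package newly copied DNA. H2A, H2B, H3 and H4 form the core of the nucleosome and H1 binds the linker DNA between cores. Their mRNAs are made in S phase, usually lack introns, and end in a conserved stem-loop in place of a poly(A) tail. The stem-loop is bound by SLBP, the pre-mRNA is cut just downstream of it with the help of the U7 snRNP, and the mRNAs are degraded quickly when DNA synthesis stops. ESCs divide fast and spend much of their cycle in S phase.

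The stem-loop is shown first because it is the element these mRNAs share. The 16 letters GGC, any base, CTTTT, CAG, any base and GCC, in a row, were searched on the transcript strand after the coding sequence in GENCODE M21 transcripts, and 31 of the 65 members held them. Anywhere in a transcript, 35 of 21951 protein-coding genes (0.159%) held them. No match says only that these letters are not in the annotated transcript. The letters left free (any base) were T and A in 24 members, all H1, H2A, H2B or H3 genes, and C and G in 7 members, all H4 genes. The 16 letters began 27 to 61 bases after the coding sequence. The genes chosen below are those described later, and the capitals mark the 16 letters.
Hist3h2ba: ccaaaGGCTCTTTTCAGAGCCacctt
Hist3h2a: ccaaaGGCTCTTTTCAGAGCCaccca
Hist1h1c: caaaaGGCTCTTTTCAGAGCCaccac
Hist2h3c2: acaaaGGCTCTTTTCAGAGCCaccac
Hist1h4d: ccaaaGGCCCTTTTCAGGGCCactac
Hist1h4n: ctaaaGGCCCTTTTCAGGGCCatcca
These lie at chr11:58949344-58949369 (plus strand), chr11:58955167-58955192 (plus), chr13:23739507-23739532 (plus), chr3:96238480-96238505 (minus), chr13:23581945-23581970 (plus) and chr13:21831793-21831818 (minus) of GRCm38 (mm10), each in the 3′ UTR of its gene and inside an exon that was counted.

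Promoter windows from RefSeq (GRCm38.p6, 250 bases before to 50 after the start) were matched for 60 members. TATAAA on either strand was found in 58.3% of them and in 13.6% of all 32851 promoters. CCAAT on either strand was found in 85% against 37.4%. It was present in each matched H1, H2A, H2B and H3 promoter and in 3 of 12 H4 promoters (25%). The octamer ATTTGCAT, the letters that POU domain factors bind, was found on either strand in 12 member promoters (20.0%, against 1.74% of all), 7 of them H2A and 5 H2B. An H2A and an H2B gene that point away from each other can share the element, as in the windows below, where each is read on the strand of the named gene and capitals mark the octamer or its reverse complement. The first is the testis pair described later, and Hist1h2bk is on the list of genes with polyadenylated forms.
Hist1h2ba: attccccttATTTGCATgcacccagc
Hist1h2aa: gctgggtgcATGCAAATaaggggaat
Hist1h2bk: tttcactttATTTGCATacgaagttc
Hist1h2ah: gaacttcgtATGCAAATaaagtgaaa
The stretch between Hist1h2ba (minus strand) and Hist1h2aa (plus strand) is chr13:23934304-23934329, and that between Hist1h2ah (minus) and Hist1h2bk (plus) is chr13:22035782-22035807.

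The depth was 3097693 to 5385644 reads in the 4sU libraries and 9300845 to 21975684 in the total libraries, and the intervals these totals allow cover counting error only. The naive and primed markers went with the cell type labels. In EpiLC total RNA, 7 of 7 naive markers were called lower (11.2% of all genes were) and 5 of 5 primed markers higher (16.3%). Of 2 general pluripotency genes, Sox2 was called lower, with means of 481 CPM in ESC and 41.1 CPM in EpiLC total libraries. Pou5f1 was also lower (935 and 550 CPM), below the fold threshold for a call. Of 7 fibroblast markers 4 were tested, and in total RNA Dcn (0 in all ESC libraries, 4.46 to 5.31 CPM in EpiLC) and Col1a2 (0.101 to 0.197 and 3.68 to 5.02 CPM) were called higher, Pdgfrb (6.996 to 11.2 and 1.69 to 2.46 CPM) was called lower and Thy1 did not pass. The 7 markers summed to 11.3 to 15.5 CPM in ESC total and 16.2 to 20.8 CPM in EpiLC total libraries, and their part in the results below was not tested. ESC library number 3 stood apart in both assays. In ESC 4sU number 3, all 57 members kept were above the mean of the other two libraries, with a median fold of 1.56. In ESC total number 3, 53 of the 57 were below it, with a median fold of 0.750. Results that rest on these libraries are therefore given with and without them.

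Counted reads had to align to a unique position, and the members are close copies of each other. The 13 H4 genes encoded 1 protein in the annotation. The H3 genes encoded 3, the H2A genes 9, the H2B genes 11 and the 6 H1 genes 6. Of all 50-base windows in the counted exons of a member, the share found in no other annotated gene's transcript had a median of 36.5% over members. It was 95.7% for H1, 59.6% for H4, 37.4% for H2B, 28.9% for H3 and 18.5% for H2A. For 13 members the share was under 10%. Hist2h2bb had a share of 0 and still 9364 reads in ESC total number 1, so the share over annotated transcripts is not the share of the gene where reads could be aligned, and the genome sequence itself was not used here. The levels of most core histone genes are therefore uncertain, and comparisons of a gene with itself between cell types are on firmer ground than comparisons between genes.

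Histone genes made up a smaller share of reads in EpiLC than in ESC libraries, in both kinds of RNA. In 4sU RNA the share of all reads was 2.02% ± 0.600 (SD, n = 3) in ESC and 1.38% ± 0.110 in EpiLC, and in total RNA it was 1.09% ± 0.148 and 0.867% ± 0.0586. The summed level, in CPM adjusted by TMM, was 15408, 16304 and 25426 in the 3 ESC 4sU libraries and 13502, 13386 and 11522 in the 3 EpiLC 4sU libraries. In total RNA it was 13189, 13042 and 9992 in ESC and 8300, 9385 and 9347 in EpiLC. All EpiLC libraries lay below all ESC libraries of the same assay, although ESC number 3 was the highest 4sU library and the lowest ESC total library. In bulk RNA, fewer cells in S phase and less histone RNA per cell cannot be told apart, and the share of cells in S phase was not measured here. Each of the 5 types had a lower mean in EpiLC in both assays. H1 summed to 4076 ± 718 CPM in ESC total and 2717 ± 240 in EpiLC total RNA. H4 summed to 2842 ± 338 and 2418 ± 92.5, and there ESC number 3 fell within the EpiLC range. So did ESC number 3 for H2A in total RNA (864 against 809 to 900 CPM), and for H2B in 4sU RNA ESC number 1 (2937 CPM) lay below EpiLC numbers 1 and 2 (3004 and 2970).

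**Figure D1:**
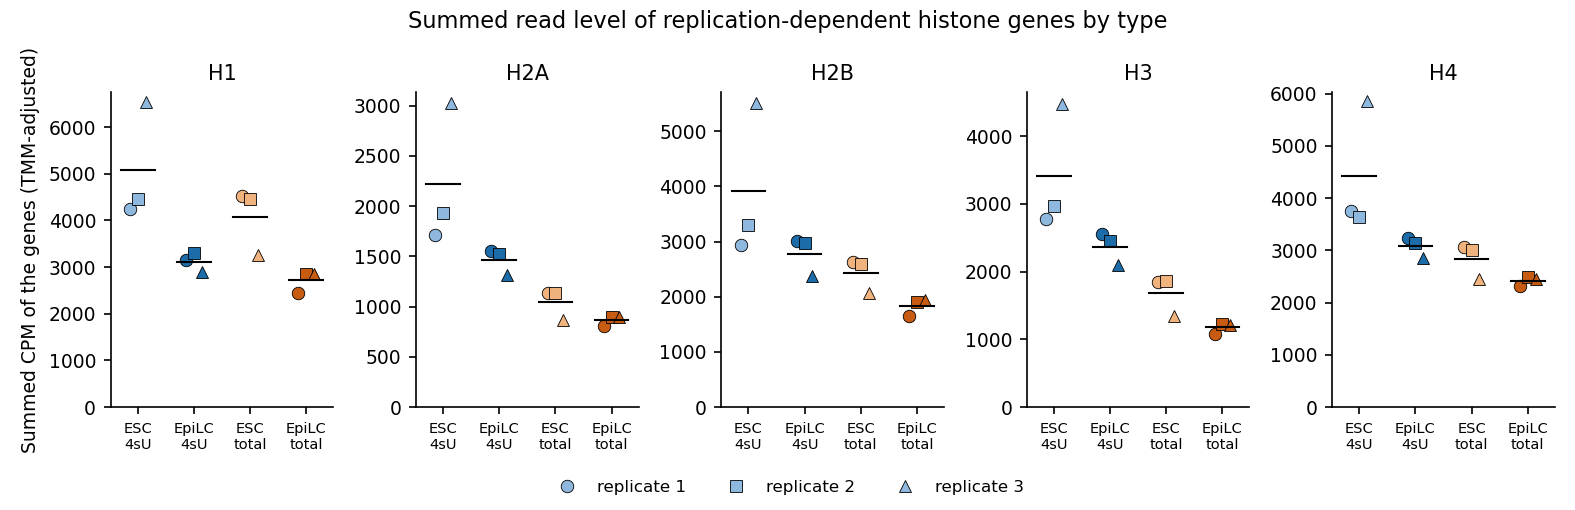
Summed CPM (TMM-adjusted, linear axes from 0, a scale for each panel) of the H1, H2A, H2B, H3 and H4 genes in each of the 12 libraries, with marker shape for the replicate number and a line at the mean of 3 libraries. ESC number 3 is the highest 4sU library and the lowest ESC total library of each type, and the EpiLC means lie below the ESC means.

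The mix of types differed between nascent and total RNA. H1 genes took 26.9% ± 0.985 of all member reads in ESC 4sU and 33.7% ± 1.00 in ESC total libraries, and 24.3% ± 0.896 and 30.1% ± 0.639 in EpiLC. H3 genes took 17.9% ± 0.276 in ESC 4sU but 13.9% ± 0.373 in ESC total RNA, and 18.5% ± 0.415 and 13% ± 0.0913 in EpiLC. The 3 libraries of the 2 assays did not overlap for either type in either cell type. These shares sum over genes of different length and are not numbers of transcripts.

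Levels between genes are compared per length, as CPM per kilobase of counted exon (CPM per kb), over the 6 total libraries. The highest gene of each type was Hist1h1a for H1 (1898 CPM per kb), Hist1h2ak for H2A (389), Hist2h2bb for H2B (1207), Hist1h3e for H3 (415) and Hist1h4d for H4 (1567). At the other end of the genes kept stood Hist2h2be (1.09 CPM per kb), Hist3h2a (1.48) and Hist2h3c2 (2.28), which were counted over exons of 2620, 2146 and 1020 bases. The median member had 482 bases of counted exon, against 2715 for protein-coding genes.

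From ESC to EpiLC most histone genes moved a little downward, and few passed the threshold for a call (limma-voom over all genes kept, p adjusted by Benjamini-Hochberg, below 0.05, with a log2 change of more than 1 either way). The mRNA change (EpiLC total against ESC total) was below 0 for 44 of the 57 members, with a median of -0.33 on the log2 scale, against 48.9% of all genes and a median of 0.02. The members called higher were Hist3h2ba and Hist1h2aa (2 of 57, against 16.3% of all genes), and the member called lower was Hist1h1c (1 of 57, against 11.2%). By the adjusted p alone, 8 members were higher (31.4% of all genes) and 21 were lower (36.8% of the 57, against 32.1%), so the share that fell was near the background. The falls ran from -0.37 for Hist1h4d to -1.07 for Hist1h1c. Without both ESC number 3 libraries the count of falls was 42 members (36.7% of all genes in that fit), and the median was -0.48. The count was 35 (34.2% of all genes) without ESC total number 3 alone, 10 without ESC total number 1 or number 2 (30% and 29.1%), and 9 without EpiLC total number 1 (28.9%). How many small falls pass thus depends on single libraries.

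Nascent RNA moved the same way. The nascent change (EpiLC 4sU against ESC 4sU) was below 0 for 48 of the 57 members, against 55.3% of all genes, with a median of -0.43 against -0.09. Hist3h2ba was called higher (1 of 57, against 11.9% of all genes) and no member was called lower by limma-voom (13.5% of all genes), while edgeR called 2 lower, DESeq2 called 0, and 33 were lower at an unadjusted p under 0.05. By the adjusted p alone, 6 members were higher (23.7% of all genes) and 27 were lower (47.4% of the 57, against 28.8%). Without ESC 4sU number 3 the median was -0.17 and 14 members were lower by the adjusted p (24.2% of all genes in that fit). Without EpiLC 4sU number 3 the median was -0.28 and 10 were lower (21.8%). Without both ESC number 3 libraries 33 members were lower (33.5%), with a median of -0.25. The median stayed below 0 in each of these fits, while the count of falls moved with the libraries left out.

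By type, the median mRNA change was -0.49 for the 6 H1 genes, -0.28 for 14 H2A, -0.15 for 14 H2B, -0.50 for 11 H3 and -0.23 for 12 H4 genes. The median nascent change was -0.64, -0.49, -0.17, -0.45 and -0.34 in the same order. Falls in mRNA by the adjusted p alone were counted for 3 H1, 3 H2A, 5 H2B, 7 H3 and 3 H4 genes, or 50%, 21.4%, 35.7%, 63.6% and 25% of those tested, against 32.1% of all genes. Falls in nascent RNA were counted for 4, 6, 6, 5 and 6, or 66.7%, 42.9%, 42.9%, 45.5% and 50%, against 28.8%. These types were not tested against each other. The H3 genes that share a protein with Hist1h3a, 4 in number, had mRNA changes of -0.66 to -0.49. Of the 8 H3 genes that share another protein, 7 were tested and ran more widely, from -0.75 to 0.62. The 12 H4 genes ran from -0.49 for Hist1h4i to 0.84 for Hist1h4n. The value of Hist1h4n did not pass, and this gene is described below as one that could not be read.

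**Figure D2:**
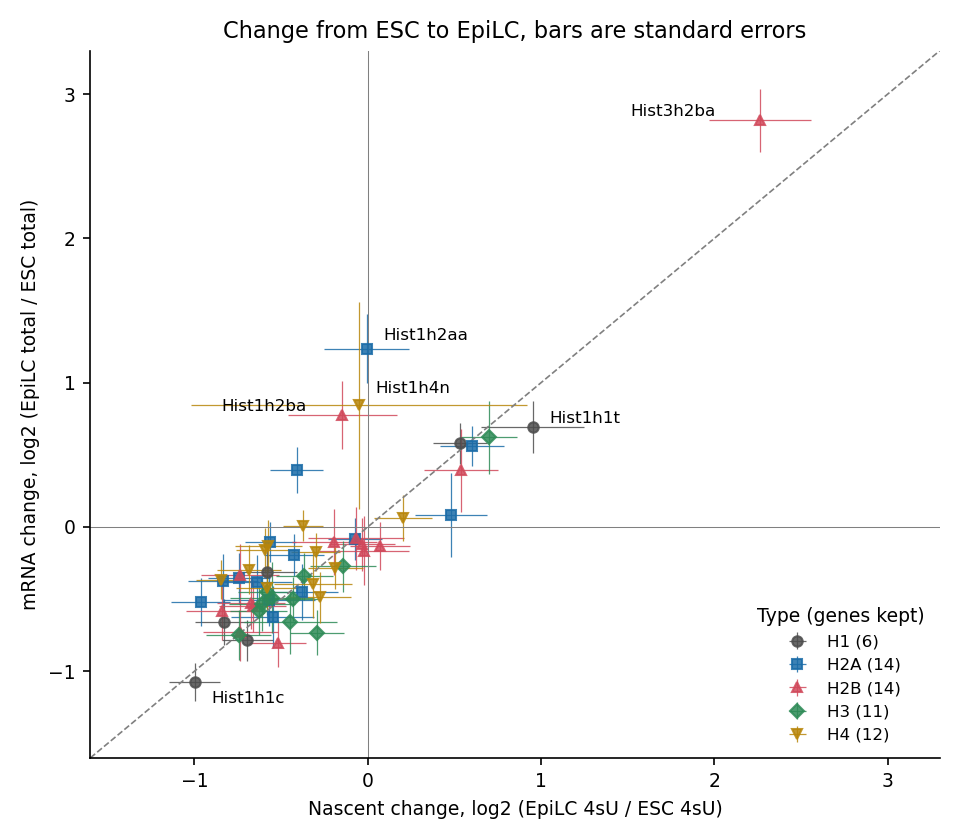
Nascent change (x, log2) against mRNA change (y, log2) from ESC to EpiLC for the 57 histone genes kept, with shape and colour for the type, bars for the standard error of the fit and a dashed line where the changes are equal. Most genes gather below 0 on both axes, Hist3h2ba stands alone at 2.26 and 2.82, and Hist1h2aa and Hist1h2ba lie above the line.

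Hist3h2ba, an H2B gene on chromosome 11 (58948920 to 58949533, plus strand, mm10), rose most. Its total level was 8.52, 7.80 and 4.92 CPM in ESC and 43.4, 58.2 and 52.4 CPM in EpiLC libraries. Its 4sU level was 7.36, 8.95 and 17.4 CPM in ESC and 49.7, 57.6 and 37.7 CPM in EpiLC libraries. The groups did not overlap in either assay. The mRNA change was 2.82 ± 0.22 (log2, SE, adjusted p = 4.26e-08), a 7.05-fold rise, and the nascent change 2.26 ± 0.29 (adjusted p = 1.80e-05), a 4.80-fold rise. Both calls held without any one library, with mRNA changes of 2.65 to 2.94 and nascent changes of 2.01 to 2.62. Its neighbour Hist3h2a, an H2A gene that starts 5151 bases downstream on the same strand, had 3.77, 3.22 and 2.16 CPM in ESC total and 2.45, 3.60 and 3.88 CPM in EpiLC total RNA. These overlapped, and its mRNA change of 0.08 ± 0.29 did not pass (adjusted p = 0.812). In 4sU RNA Hist3h2a had 12.5, 18.4 and 20.1 CPM in ESC and 21.9, 27.1 and 19.6 CPM in EpiLC, which also overlapped.

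Of the 3 members known for expression in the male germ line (Hist1h1t, Hist1h2aa and Hist1h2ba), all were higher in EpiLC total RNA by the adjusted p. Hist1h2aa, the testis H2A gene, had 8.40, 9.87 and 6.19 CPM in ESC total and 16.2, 22.6 and 20.3 CPM in EpiLC total libraries. The groups did not overlap, and the mRNA change was 1.23 ± 0.24 (adjusted p = 0.000378), a 2.35-fold rise that was called without any one library (1.10 to 1.39). Its partner Hist1h2ba, the testis H2B gene whose start lies 305 bases away on the other strand, had 11, 13.1 and 11.5 CPM in ESC total and 16.3, 23.8 and 21.5 CPM in EpiLC total libraries. These also stood apart, with a change of 0.77 ± 0.23 (adjusted p = 0.00966), and the adjusted p reached 0.0513 when 1 library was left out.

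Nascent RNA of the testis pair did not follow. Hist1h2aa had 25.8, 25 and 51.0 CPM in ESC 4sU and 25.4, 35.2 and 32.0 CPM in EpiLC 4sU libraries. Hist1h2ba had 15.5, 16.1 and 42.6 CPM in ESC 4sU and 17.7, 21.6 and 16.6 CPM in EpiLC 4sU libraries. In both genes ESC number 3 lay above all EpiLC libraries. The other two ESC libraries lay below them for Hist1h2ba and near the lowest of them for Hist1h2aa. The nascent changes were -0.01 ± 0.25 (adjusted p = 0.984) and -0.15 ± 0.31 (adjusted p = 0.720). Without ESC 4sU number 3 they were 0.33 and 0.30, which did not pass either. Hist1h1t, the testis H1 gene, was low throughout, with 6.90, 5.49 and 5.01 CPM in ESC total and 7.70, 11.9 and 8.85 CPM in EpiLC total libraries. It rose by 0.69 ± 0.18 in mRNA (adjusted p = 0.00380) and by 0.95 ± 0.30 in nascent RNA (adjusted p = 0.0152), below the fold threshold.

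**Figure D3:**
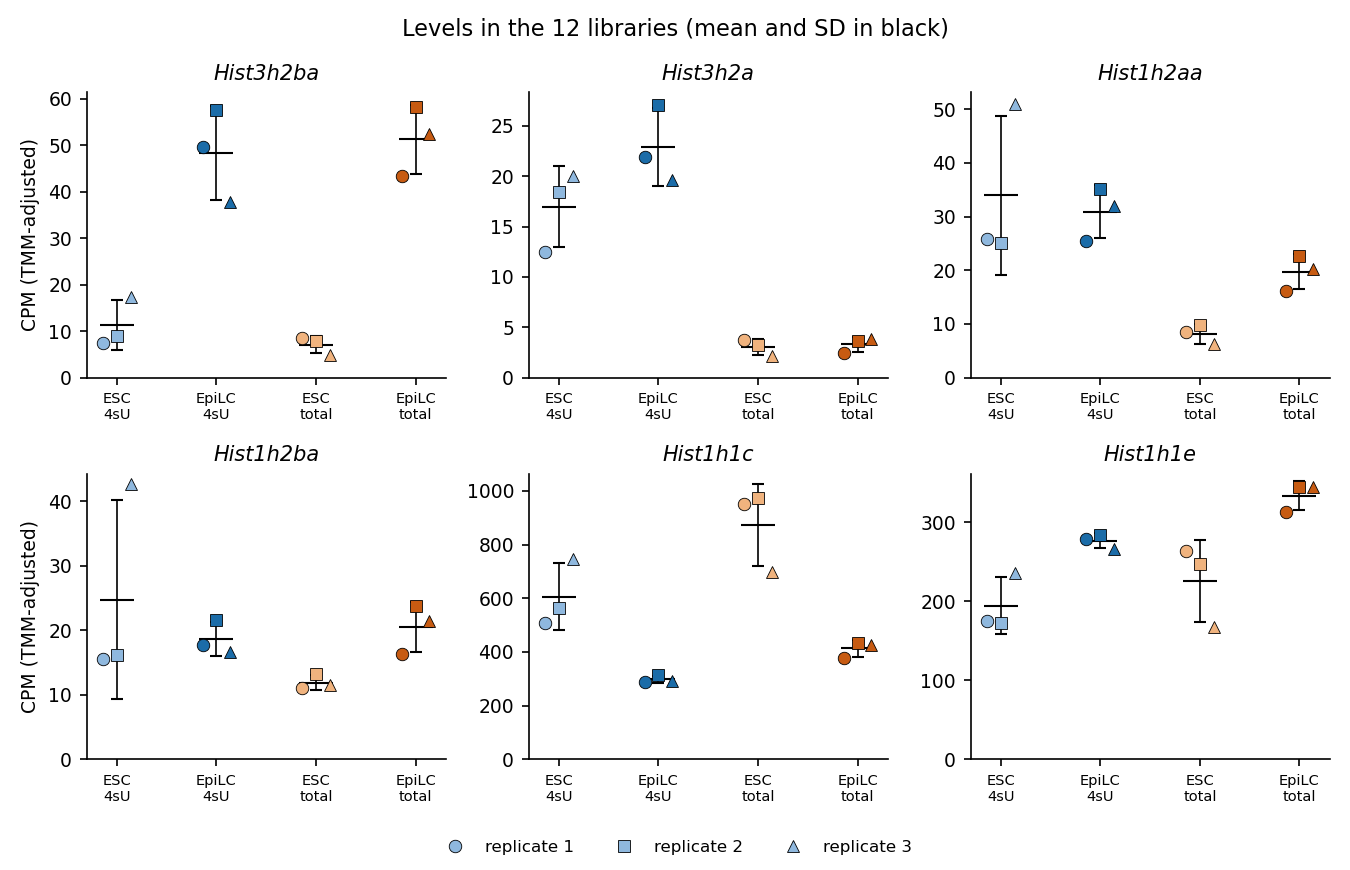
CPM (TMM-adjusted, linear axes from 0, a scale for each panel) of 6 histone genes in the 12 libraries, with marker shape for the replicate number and mean and SD (n = 3) in black. Hist3h2ba rises in both assays while Hist3h2a overlaps, Hist1h2aa and Hist1h2ba rise in total RNA with ESC 4sU number 3 far above the other ESC 4sU libraries, and Hist1h1c falls while Hist1h1e rises.

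Linker histone genes moved in opposite directions. Hist1h1c (H1.2) had 950, 975 and 698 CPM in ESC total and 378, 433 and 428 CPM in EpiLC total libraries, which did not overlap. The mRNA change was -1.07 ± 0.13 (adjusted p = 6.47e-06), a 2.11-fold fall, and the call was lost without ESC total number 2, where the change was -0.99. Its nascent change of -0.998 ± 0.15 (adjusted p = 6.27e-05) ended just short of the fold threshold. Hist1h1e (H1.4) had 263, 247 and 167 CPM in ESC total and 312, 344 and 344 CPM in EpiLC total libraries, again without overlap, and rose by 0.58 ± 0.14 (adjusted p = 0.00248), below the fold threshold. Its nascent RNA rose by 0.53 ± 0.16 (adjusted p = 0.0112). Hist1h1a, the H1 gene with the highest level, had 1624, 1598 and 1254 CPM in ESC total and 840, 985 and 1009 CPM in EpiLC total libraries, and fell by 0.66 (SE 0.16, adjusted p = 0.00238). Hist1h1e was chosen for mention after its values were seen.

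Members known to give polyadenylated transcripts in some cells were taken as a list of 7, of which 6 were tested. Hist1h1c, Hist1h2ac, Hist1h2bc and Hist1h2bk were lower in both total and nascent RNA by the adjusted p, with mRNA changes of -1.07 to -0.52. These were 66.7% of the 6 in each assay. In total RNA 32.1% of all genes and 36.8% of the 57 members were lower, and in nascent RNA 28.8% and 47.4%. Hist2h2be (0.39 ± 0.29, adjusted p = 0.246) and Hist3h2a did not pass in total RNA, and Hist2h2be was higher in nascent RNA (0.54 ± 0.21, adjusted p = 0.0458). Hist2h2aa1 had 0 reads. Hist1h2ac and Hist1h2bc, an H2A and H2B pair with starts 274 bases apart, had nascent changes of -0.96 ± 0.17 and -0.84 ± 0.21 (adjusted p = 0.000297 and 0.00382).

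The genes of highest level in the other types changed less in total RNA. Hist1h4d, an H4 gene, had 754, 730 and 597 CPM in ESC total and 523, 544 and 546 CPM in EpiLC total libraries, and fell by 0.37 (SE 0.14, adjusted p = 0.0289). Its nascent RNA fell by 0.85 (SE 0.14, adjusted p = 0.000166), from 1124, 1099 and 1692 CPM to 745, 735 and 643 CPM. Hist1h3e fell by 0.50 in total RNA (SE 0.15, adjusted p = 0.0107). Hist1h2ak had a change of -0.36 ± 0.18 (adjusted p = 0.0954) and Hist2h2bb of -0.13 ± 0.17 (adjusted p = 0.507), neither of which passed.

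The mRNA change minus the nascent change, the stability change, passed for no member in the main fit, which had no replicate block. Its median was 0.06 over the 57 members, against 0.11 over all genes, and by type it was -0.01 for H1, 0.24 for H2A, 0.05 for H2B, -0.01 for H3 and 0.27 for H4 genes. limma-voom called 0 members higher and 0 lower (1.24% and 0.305% of all genes), and 0 by the adjusted p alone (2.72% and 1.88%). At an unadjusted p under 0.05, 6 were higher and 0 lower. edgeR (1.36, adjusted p = 0.0424) and DESeq2 (1.30, adjusted p = 0.0149) each called 1 member higher, Hist1h2aa. In the main limma-voom fit Hist1h2aa had 1.24 ± 0.34 (adjusted p = 0.0539), close to the threshold but not called. The same test called it with library totals alone (adjusted p = 0.0452) and without ESC total number 3 (adjusted p = 0.0330). It was also called with a replicate block, as an additive number (1.24, adjusted p = 0.0421) or as a term for each number within a cell type (1.26, adjusted p = 0.0222). No member was called higher with median-of-ratios factors, TMM within each assay, sample quality weights or both ESC number 3 libraries left out. As single libraries were left out, the stability change of Hist1h2aa ran from 0.88 to 1.40. Whether this gene passed thus depended on the fit. In the main fit its H2B partner Hist1h2ba had 0.92 ± 0.39 (adjusted p = 0.178). Hist1h2an had 0.81 ± 0.22 (adjusted p = 0.0518), with mRNA higher and nascent RNA lower by the adjusted p alone.

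ESC number 3 also bore on the stability change. Without both of its libraries the median over members was -0.27 (0.13 over all genes), and by the adjusted p alone 19 members were lower and 2 higher (6.69% and 13.7% of all genes in that fit), none past the fold threshold. The members as a group thus had no stable sign of stability change: the median was positive with these libraries and negative without them.

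Relative mRNA stability, log2 of total over 4sU, was low for histone genes in both cell types. It is given relative to the median over all genes kept, since each library is scaled to its own composition. The study's methods read this ratio as stability by assuming that mRNA levels in a state stay constant. Whether that holds for histone genes was not tested. Members also have short counted exons (median 482 bases, against 2715 for protein-coding genes), and the part of length in the comparison with all genes was not tested. The median over the 57 members was -0.76 in ESC and -0.73 in EpiLC, and 51 and 50 members lay below the median gene. Per pair of libraries with the same number, the member median was -0.31, -0.46 and -1.59 in ESC and -0.93, -0.71 and -0.57 in EpiLC. It was below 0 in all 6, with ESC number 3 the lowest by far, and in the fit without both ESC number 3 libraries it was -0.40 in ESC. Without the expression filter, where all genes with a read enter, the all-gene median dropped to -0.81 and the members lay above it, by 0.33 in ESC and 0.15 in EpiLC, so "low" holds against genes expressed at the level of the filter.

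In the comparison of total with 4sU RNA, 18 members were called lower in ESC (31.6% of the 57, against 26.8% of all genes) and 13 in EpiLC (22.8%, against 23.3%). None was called higher (23.7% and 24.2% of all genes), and 2 were higher by the adjusted p alone in each cell type (40.2% and 41.2%). By the adjusted p alone 38 were lower in ESC (66.7%, against 38.9%) and 35 in EpiLC (61.4%, against 34.5%). The share past the fold threshold was near the background in both cell types, while the share lower by the adjusted p was above it. Without both ESC number 3 libraries, 10 were called lower in ESC (26.9% of all genes in that fit) and 36 by the adjusted p (40.4%). Of the 18, 6 were H2A, 4 H2B, 6 H3 and 2 H4 genes, and none was an H1 gene.

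The types kept one order in both cell types. The median relative stability in ESC was -1.06 for H3, -0.89 for H2A, -0.80 for H2B, -0.47 for H4 and -0.12 for H1 genes, and in EpiLC -1.10, -0.82, -0.65, -0.30 and -0.22. H1 was the highest type in all 6 pairs of libraries and H3 the lowest in 5, with H2A just below it in ESC number 2. Within a cell type the gap between H1 and H3 was larger than the spread over EpiLC pairs (SD 0.128 and 0.230), while ESC pairs spread more (SD 0.628 and 0.693) because all types shifted together in number 3. Genes of a type share sequence and pairs share libraries, and the types were not tested against each other.

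**Figure D4:**
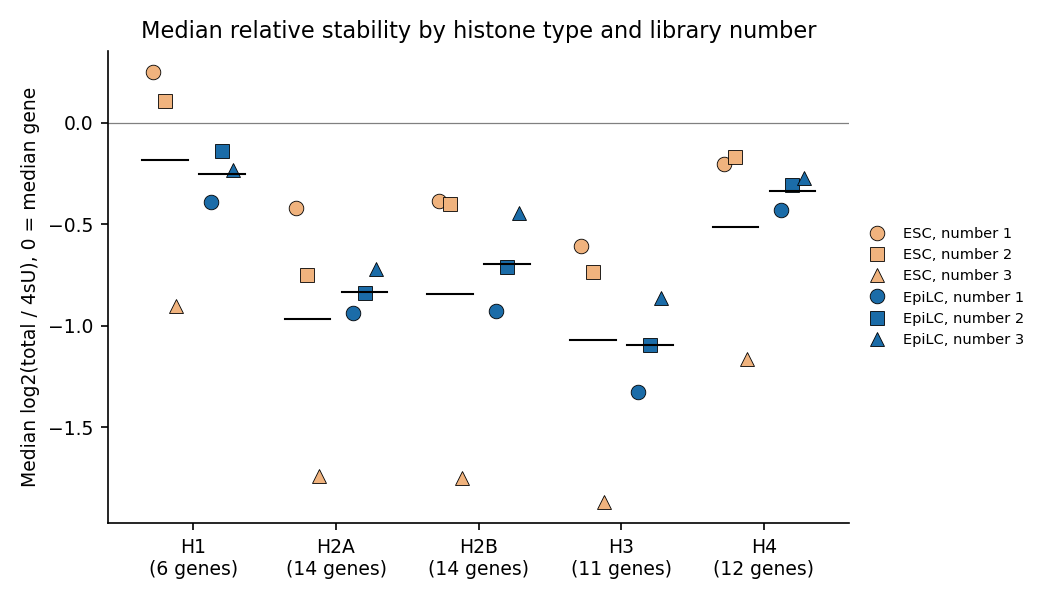
Median log2 of total over 4sU for the genes of each histone type (y, 0 = median over all genes kept), per pair of libraries with the same number, with lines at the mean of 3 pairs. ESC number 3 lies below the other ESC pairs for each type, and H3 genes lie lowest in both cell types.

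Single genes spread much more widely than the types. Hist2h3c2, an H3 gene on chromosome 3, had the lowest value, with 13.9, 14.5 and 16 CPM in ESC 4sU but 1.68, 1.56 and 2.36 CPM in ESC total libraries. Its relative stability was -3.07 in ESC and -3.27 in EpiLC, at percentiles 10.2 and 5.06 of all genes. Hist2h2be, an H2B gene, followed in ESC with 9.81, 12.9 and 20.9 CPM in 4sU and 2.09, 2.42 and 3.05 CPM in total RNA, a value of -2.49. Hist3h2a had -2.43 in ESC and -2.94 in EpiLC. These are low-count genes, with 29 to 65 reads each in ESC total number 1.

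Long counted exons were a shared feature of several of these genes, but not of all. Hist2h4, an H4 gene counted over 1630 bases, had 390, 338 and 523 CPM in ESC 4sU and 141, 135 and 64.6 CPM in ESC total libraries, a relative stability of -1.93 in ESC and -2.13 in EpiLC. Hist1h2an, counted over its 393 bases, had 135, 160 and 219 CPM in ESC 4sU and 33.5, 33.9 and 26.3 CPM in ESC total libraries, and stood at -2.44 in ESC and -1.75 in EpiLC. Hist1h1c is counted over 1560 bases and was among the highest. Over the 57 members, counted exon length and relative stability had a Spearman correlation of 0.01 in ESC and -0.17 in EpiLC. The Pearson correlation was -0.21 in ESC and -0.36 in EpiLC. These are descriptions over genes that share libraries. The 25 kept members with the stem-loop letters and the 32 without had medians of log2 total over 4sU in ESC of -0.73 and -0.74. These medians are not set against the all-gene median of 0.03. A member without the letters in its annotated transcript may still have the element, so this split cannot show what the stem-loop does.

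The highest relative stability belonged to Hist1h2ad and Hist1h1c. Hist1h2ad, an H2A gene, had 28.4, 34.2 and 59.4 CPM in ESC 4sU and 62.0, 61.3 and 46.5 CPM in ESC total libraries, a value of 0.56 in ESC and 0.51 in EpiLC. Hist1h1c had 508, 563 and 748 CPM in ESC 4sU, below 950 and 975 but not below 698 in total RNA, and stood at 0.51 and 0.32. Hist1h2ad encodes the same protein as Hist1h2an, and in ESC their ratios of total over 4sU differed 7.99-fold. Of their windows, 15.9% and 14.2% were found in no other annotated gene's transcript, and how the aligner placed the other reads was not tested.

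**Figure D5:**
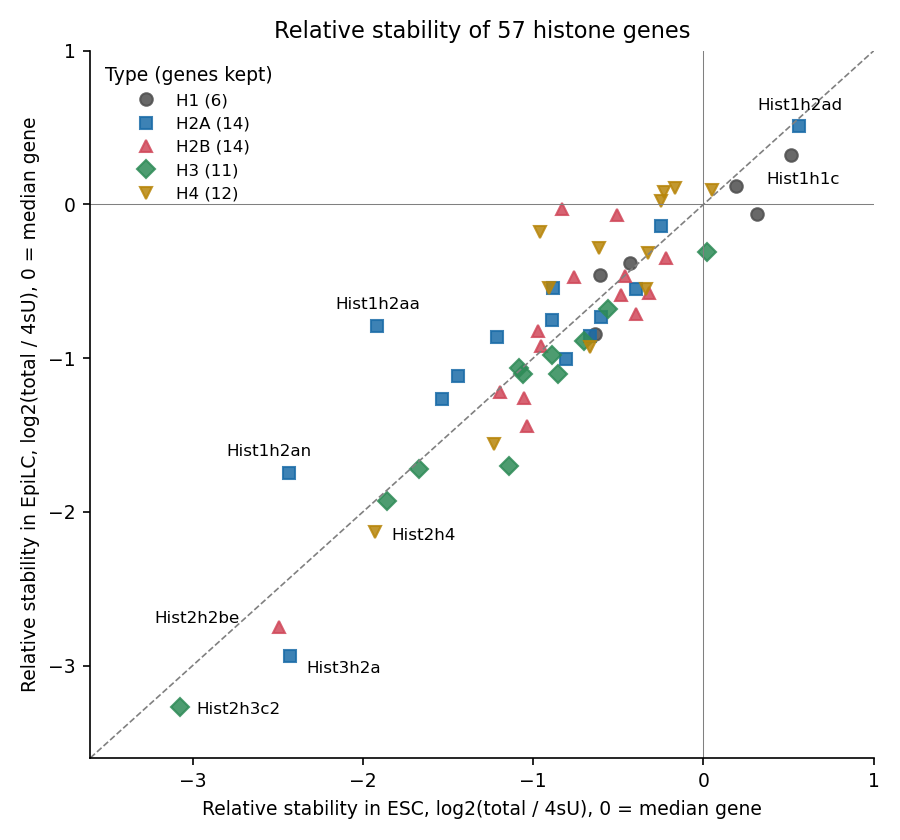
Relative stability of the 57 genes kept in ESC (x) and EpiLC (y), as log2 of total over 4sU with 0 at the median over all genes kept, by type, with a dashed line at equality. Most genes lie below 0 on both axes, Hist2h3c2, Hist3h2a and Hist2h2be lie lowest, and Hist1h2aa and Hist1h2an lie above the line.

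One gene could not be read. Hist1h4n, an H4 gene, had 5.11, 6.26 and 56.9 CPM in ESC 4sU, 8.01, 9.32 and 15.7 CPM in EpiLC 4sU, 4.00, 3.22 and 24.7 CPM in ESC total and 19.5, 11.8 and 4.67 CPM in EpiLC total libraries. In ESC 4sU and in both total groups, the libraries differed by more than the group means of that assay did. The mRNA change of Hist1h4n was 0.84 ± 0.71 (adjusted p = 0.319). Without both ESC number 3 libraries it was called higher, at 1.49 (adjusted p = 0.0024). It was chosen after its values were seen.

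Position in the genome went with direction to some extent. Most members, 52, lie on chromosome 13, in a group of 22 from 21715763 to 22043676 and a group of 30 from 23531050 to 23934851, with 10 on chromosome 3, 2 on chromosome 11 and 1 on chromosome 6. The median mRNA change was -0.31 for the 17 tested genes of the first chromosome 13 group, -0.48 for the 30 of the second and -0.09 for the 7 tested on chromosome 3. The median nascent change was -0.45, -0.58 and 0.07. All 17 genes of the first group were below 0 in nascent RNA, and 3 of 7 were on chromosome 3. Neighbours share close copies and reads, and the groups were not tested against each other.

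Divergent H2A and H2B pairs, with starts 235 to 305 bases apart, numbered 12, of which 10 had both genes tested. The mRNA change had the same sign in 8 of 10 pairs and the nascent change in 9 of 10, with a median absolute difference between partners of 0.17 and 0.13 on the log2 scale. Of the 57 members tested, 77.2% were below 0 in mRNA and 84.2% in nascent RNA, so any pair of members would often share a sign. Differences between members that are not partners were not compared. Hist1h2ah and Hist1h2bk had mRNA changes of -0.38 and -0.55 and nascent changes of -0.64 and -0.66. The H2A gene had the higher stability change in 9 of the 10 pairs. The exception was Hist1h2ad with Hist1h2bf (0.06 and 0.15). The median absolute difference between partners in stability change was 0.20 on the log2 scale. No member passed for the stability change in the main fit, and all pairs share the same libraries. The count of 9 and its dependence on single libraries were not tested. Pairs that differed most in total RNA were Hist2h2ac (-0.09) with Hist2h2be (0.39), Hist1h2an (0.40) with Hist1h2bp (-0.08), and Hist1h2aa with Hist1h2ba, and these were chosen after their values were seen.

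Factors that act on histone genes and mRNAs moved mostly by less than the fold threshold. Of 19 genes for transcription, 3′ processing and decay of histone mRNAs, 1 was called lower in total RNA (5.26%, against 11.2% of all genes) and 0 higher (16.3% of all genes). The gene called was Coil, which encodes the Cajal body protein coilin, with a change of -1.84 ± 0.09 (adjusted p = 5.53e-10) and a nascent change of -2.002 ± 0.12 (adjusted p = 1.19e-08). Slbp, which encodes the stem-loop binding protein, had -0.05 ± 0.08 (adjusted p = 0.571). By the adjusted p alone, 5 of the 19 were higher (26.3%, against 31.4% of all genes) and 8 lower (42.1%, against 32.1%). Among 10 histone chaperone genes, Asf1b, a chaperone of H3 and H4, was called lower in total RNA (-1.24 ± 0.11, adjusted p = 2.22e-07), and none was called higher. That was 10% lower, against 11.2% of all genes, and 0 higher, against 16.3%. By the adjusted p alone, 3 of the 10 were higher (30%, against 31.4%) and 5 lower (50%, against 32.1%).

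S phase genes were mostly lower in EpiLC. Over 17 of them the median mRNA change was -0.34 and the median nascent change -0.25, and by the adjusted p 11 were lower (64.7%, against 32.1% of all genes) and 1 higher (5.88%, against 31.4%) in total RNA. E2f1, a transcription factor of the G1 to S transition, was the 1 called lower (-1.25 ± 0.15, adjusted p = 5.48e-06), or 5.88% against 11.2% of all genes. It was also called lower in nascent RNA (-1.32 ± 0.16, adjusted p = 1.24e-05), where 13.5% of all genes were. Ccne2, a cyclin E gene, was called higher in nascent RNA (1.02 ± 0.13, adjusted p = 1.88e-05), where 11.9% of all genes were. The S phase genes had a median log2 of total over 4sU of 0.68 in ESC and 0.59 in EpiLC. Unlike the relative stability above, these values are not set against the median over all genes kept, which was 0.03 in ESC and 0.15 in EpiLC. Of 13 replication-independent histone genes, 11 were tested, with a median mRNA change of -0.21. H2afy (macroH2A1) was called lower in total RNA (-1.65 ± 0.08, adjusted p = 3.83e-10) and in nascent RNA (-1.28 ± 0.14, adjusted p = 3.93e-06), and none was called higher. In total RNA that was 9.09% lower, against 11.2% of all genes, and 0 higher, against 16.3%. By the adjusted p alone, 2 of the 11 were higher in total RNA (18.2%, against 31.4%) and 5 lower (45.5%, against 32.1%). The difference between these lists and the replication-dependent genes was not tested.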

How the data were processed

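The deposited table held raw read counts per gene for 12 libraries of mouse cells. Per the labels and the study's methods, the authors trimmed single-end 50-base reads of stranded libraries with cutadapt 1.14, aligned them to mm10 with STAR 2.5.3a, kept uniquely aligned reads, counted them over GENCODE M14 exons with featureCounts 1.5.3 and removed ribosomal RNA genes. Unique alignment lowers the counts of near-identical histone genes by an unknown amount. The 92 spike-in entries held 0 reads and were left out, and 2 GENCODE M21 histone genes (Hist1h2bm and Hist1h2bh) had no matching gene ID and were not analysed here.

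From the counts, the 14731 genes that reached 3 CPM in 3 or more libraries were fitted with limma-voom (limma 3.58.1, TMM factors from edgeR 4.0.16) over all 12 libraries with a mean for each group. A call needed an adjusted p under 0.05 over all genes kept and an absolute log2 fold change over 1. All p-values are two-sided. The stability change was the interaction of cell type and assay. The script was tested on simulated data. Alternatives were other scalings and filters, edgeR, DESeq2 1.42.0, sample weights, a replicate block, and fits without each library. Members and lists were chosen with earlier results of these data known. Members named were the highest of each type in CPM per kb, those called (at most 6 in a direction, otherwise the 4 with the largest change), the 2 highest and 2 lowest in relative stability in ESC, and the testis and poly(A) lists. Of the other lists, called genes were named, and all genes of the general pluripotency list. Any further gene (Hist1h1e, Hist1h4n, Hist1h4i, Slbp, Dcn and pair partners) was chosen after its values were seen. RNA spike-ins gave no scale, so levels are relative to the RNA of each library.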

Additional observations from a re-analysis of the deposited data

How the results depend on the processing

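The calls for Hist3h2ba (mRNA and nascent) and Hist1h2aa (mRNA) held without any one library, and no called change of a named gene changed sign under any alternative. Changes that were not called did, such as the nascent changes of Hist1h2aa (-0.16 to 0.33) and Hist1h2ba (-0.38 to 0.30) and the mRNA change of Hist2h2bb (-0.36 to 0.003) as single libraries were left out. The all-gene median of the mRNA change shifted to 0.11 with library totals alone. Members called lower in mRNA numbered 0 with library totals alone and 2 without the filter, against 1. Members called higher in nascent RNA numbered 2 with median-of-ratios factors, TMM within each assay, sample quality weights or both ESC number 3 libraries left out, against 1. Members called lower in nascent RNA numbered 1 with a filter of 1 CPM and 2 with edgeR, against 0. Members called higher in stability change numbered 1 with library totals alone, edgeR or DESeq2, against 0. By the adjusted p alone, 8 were higher and 21 lower in mRNA, and 6 and 27 in nascent RNA. Without the filter, the median relative stability was 0.33 in ESC and 0.15 in EpiLC, because genes near 0 reads entered the all-gene median. Leaving out each library in turn gave 0 to 1 members lower and 2 higher in mRNA, 1 to 2 higher and 0 to 4 lower in nascent RNA, and 0 to 1 higher in stability change. With the replicate block, as an additive number or as a term for each number within a cell type, 1 member, Hist1h2aa, was called higher in stability change (adjusted p = 0.0421 and 0.0222). Deviations of same-numbered libraries correlated at 0.17, 0.30 and 0.41 between ESC 4sU and total, at 0.02 to 0.07 in EpiLC and at -0.08 to -0.01 between cell types. The main fit did not take the numbers as pairs, although each ESC value is over 0.1. Per the study's methods, labelled samples were extracted and then split into a part for each assay, so a 4sU and a total library can share an extract. The labels do not say that same-numbered libraries are such parts. The values between cell types do not bear on pairs within a cell type. The causes of these shifts, other than the filter, were not tested.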

Other observations

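The pseudogene Hist3h2bb-ps lies between Hist3h2ba and Hist3h2a on the opposite strand (chromosome 11, 58954048 to 58954512, mm10) and is no member. It had 3.82, 4.03 and 2.36 CPM in ESC total and 12.3, 15.8 and 13.6 CPM in EpiLC total libraries. In 4sU RNA it had 4.09, 5.73 and 16.3 CPM in ESC and 20.0, 29.2 and 19.6 CPM in EpiLC libraries. The groups did not overlap in either assay, although ESC number 3 was again the highest ESC 4sU library. The mRNA change was 1.98 ± 0.29 and the nascent change 1.75 ± 0.35 (log2, SE, limma-voom, adjusted p = 0.000762 for the nascent change), and both were called without any one library. Reads shared with the H2B genes were not separated further here.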
